A study of Homo sapiens with 4 samples.

Results

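The genes of 9 chromatin regulators and transcriptional coactivators that have been linked to TAZ were examined: PRMT5, KMT2D, EZH2, SMARCA4, ARID1A, EP300, CREBBP, NCOA3 and MED1. They were taken by name from the 19962 protein-coding genes of GENCODE release 44 on chromosomes 1 to 22 and X. All accessible regions in the gene body or within 50 kb of it were collected for each gene, which gave 53 of the 149858 regions of the genome. The values describe open chromatin at the genes that encode these proteins, and neither their RNA or protein levels nor where the proteins bind. ATAC-seq, which marks accessible DNA by the insertions of a transposase, was carried out in the non-transformed human mammary epithelial cell line MCF10A carrying a tet-inducible, constitutively active form of TAZ (TAZ-4SA). One group was cultured without doxycycline (No Dox) and the other with 0.05 µg/mL of it for 72 h (Dox), with 2 biological replicates each and 50000 cells per reaction. The comparison asks where chromatin opens or closes when TAZ is activated. Both groups carried the transgene, only one received the drug, and an effect of doxycycline itself cannot be told apart from that of TAZ-4SA.

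The authors pooled the 2 replicates of each condition before they called peaks, so each condition is represented by 1 peak list, and neither a spread between replicates nor a p-value can be given. Exact Clopper-Pearson 95% confidence intervals are given for shares and cover counting error only. They treat the regions as independent, although several lie in the window of the same gene. Read counts are not part of the lists, and the depth behind them is unknown. The No Dox list held 117740 peaks and the Dox list 84353. Peaks that overlapped were merged into regions, and each region was classed by the list that held it as Dox-only, as No-Dox-only or as shared. A condition-only region is one that passed the peak caller's false discovery rate of 0.05 in 1 list alone, and DNA without a peak may still be accessible below it. A peak in a bulk sample does not tell whether a site was open in more cells or more open in each. A promoter peak in both lists was found at 11 of 12 mammary epithelial, 3 of 7 fibroblast, 2 of 8 immune and 1 of 6 endothelial marker genes, and no peak in either list at 1, 2, 3 and 5 of them. Over all coding genes, 65.3% had a promoter peak in both lists and 24.9% in neither. The epithelial marker without a promoter peak was KRT14.

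Gene regulators of this kind act on nucleosomes or bridge them to RNA polymerase. Histone methyltransferases and acetyltransferases place chemical marks on histone tails, SWI/SNF complexes use ATP to slide or evict nucleosomes, and the Mediator complex connects factors bound at enhancers to the transcription machinery. TAZ does not bind DNA by itself and is brought to it mainly by TEAD factors, often at enhancers that also hold AP-1 sites.

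The sequences of 3 promoters and 1 exonic region are shown because they hold the start-site peaks that differed most between the lists and the TEAD letters of a Dox-only region. MED1 and ARID1A had a peak at the start site with Dox alone, and NCOA3 had the start-site peak that gained most. The promoters are the 250 bases before the RefSeq start on GRCh38.p14, which was the start of the GENCODE canonical transcript in each case, in the direction of transcription. They lie at chr17:39451264-39451513 on the minus strand (MED1), chr1:26695765-26696014 on the plus strand (ARID1A) and chr20:47501637-47501886 on the plus strand (NCOA3). Capitals mark a CCAAT box in MED1, GC boxes (GGGCGG or its reverse complement) in ARID1A and a TEAD consensus in NCOA3.
MED1 promoter: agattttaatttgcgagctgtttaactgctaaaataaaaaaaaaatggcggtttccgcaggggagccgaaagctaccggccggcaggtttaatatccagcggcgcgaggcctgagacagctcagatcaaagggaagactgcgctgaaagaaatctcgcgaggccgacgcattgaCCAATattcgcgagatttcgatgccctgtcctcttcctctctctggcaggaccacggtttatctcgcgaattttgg
ARID1A promoter: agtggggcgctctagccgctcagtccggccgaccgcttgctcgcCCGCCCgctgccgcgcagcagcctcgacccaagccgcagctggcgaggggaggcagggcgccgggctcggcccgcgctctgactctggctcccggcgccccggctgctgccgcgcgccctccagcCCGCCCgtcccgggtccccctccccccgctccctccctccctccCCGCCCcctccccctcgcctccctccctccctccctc
NCOA3 promoter: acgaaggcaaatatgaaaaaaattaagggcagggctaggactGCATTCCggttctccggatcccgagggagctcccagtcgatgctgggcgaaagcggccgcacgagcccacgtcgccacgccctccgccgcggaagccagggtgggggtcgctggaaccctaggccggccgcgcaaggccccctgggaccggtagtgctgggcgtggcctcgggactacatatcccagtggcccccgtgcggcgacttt

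The other sequence is the 201 bases around the summit of a Dox-only region in coding exon 32 of KMT2D (chr12:49041275-49041475), read from the plus strand of hg38. Capitals mark its TEAD consensus.
KMT2D exonic region: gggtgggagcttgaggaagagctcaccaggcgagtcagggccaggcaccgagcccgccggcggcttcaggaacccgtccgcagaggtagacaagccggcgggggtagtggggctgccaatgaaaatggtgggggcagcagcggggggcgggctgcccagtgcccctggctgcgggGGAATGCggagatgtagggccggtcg

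The windows of the 9 genes held more peaks with Dox than without it, 53 against 36, although the Dox list as a whole was the shorter. Of their 53 regions, 34 were shared between the lists, and the 19 others comprised 17 Dox-only and 2 No-Dox-only regions. The Dox-only regions thus made up 89.5% (95% CI 66.9 to 98.7) of these condition-only regions, compared with 39.7% of those in the windows of all coding genes (95% CI 39.3 to 40.1) and 33.0% of those in the whole genome. Of the strong condition-only regions, those whose peak reached the median fold of its list, 8 were Dox-only and none No-Dox-only at the 9 genes, which leaves a lower bound of 63.1%, and 37.7% were Dox-only in the windows of all coding genes. The 9 windows also had fewer condition-only regions, 35.8% of their regions compared with 63.4% over coding genes.

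At least 1 Dox-only region was found at 8 of the 9 genes, compared with 72.7% of coding genes, so this count lay near the background. At least 1 No-Dox-only region was found at only 2, CREBBP and ARID1A, compared with 61.9% of coding genes. More Dox-only than No-Dox-only regions were found at 7, compared with 44.7% of coding genes. CREBBP had 1 of each, and EZH2 had no condition-only region at all.

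**Figure D1:**
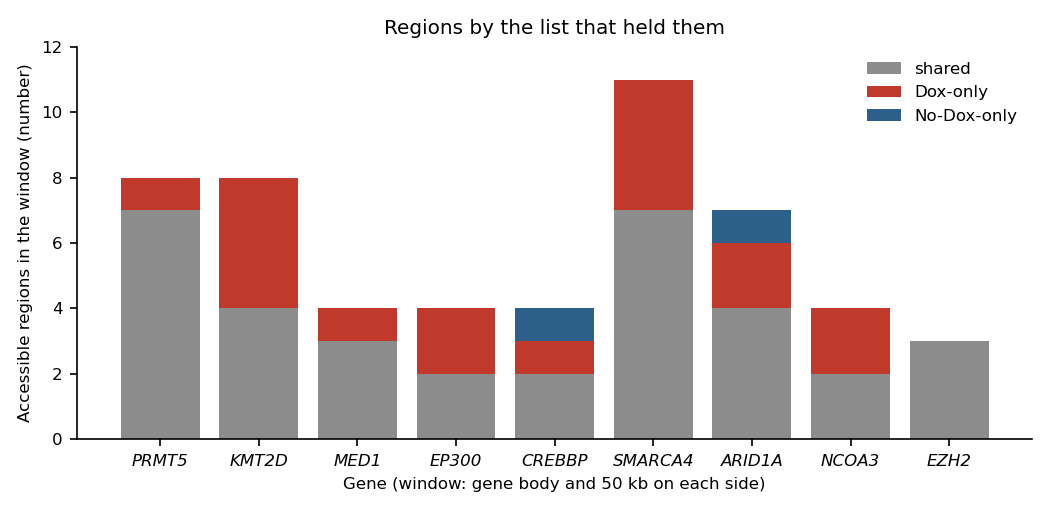
Number of accessible regions (y axis) in the window of each of the 9 genes (x axis), stacked by class: shared between the lists (grey), Dox-only (red) and No-Dox-only (blue). SMARCA4 and KMT2D had the most Dox-only regions, 4 each, and the only No-Dox-only regions were 1 at CREBBP and 1 at ARID1A.

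The balance was given separately for gene bodies and flanks. Of the 20 regions in gene bodies 6 were Dox-only and 2 No-Dox-only, a Dox-only share of 75% whose 95% CI of 34.9 to 96.8 includes that of all coding windows. The share of all coding windows covers gene bodies and flanks together, and it was not computed for either part alone. Of the 33 regions in the flanks 11 were Dox-only and none No-Dox-only, with a lower bound of 71.5%. Of the 17 Dox-only regions, 9 had the gene itself as the nearest coding gene, and the others were nearer to a neighbour. Within 1 kb of an annotated start site of the gene lay 5 of the 17, 4 were near one of another coding gene, and 8 near none. The Dox-only regions were between 224 and 870 bp wide with a median of 327 bp, compared with 351 bp over all Dox-only regions of the genome. The shared regions had a median width of 735.5 bp, compared with 938 bp over all shared regions. The median fold over background of the 17 Dox-only regions was 3.84. It was 3.62 over all Dox-only regions, and 4.07 over the whole Dox list. By the rule given above, 8 of the 17 were strong and 9 weak, compared with 9877 strong regions among all 33440 Dox-only regions.

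**Figure D2:**
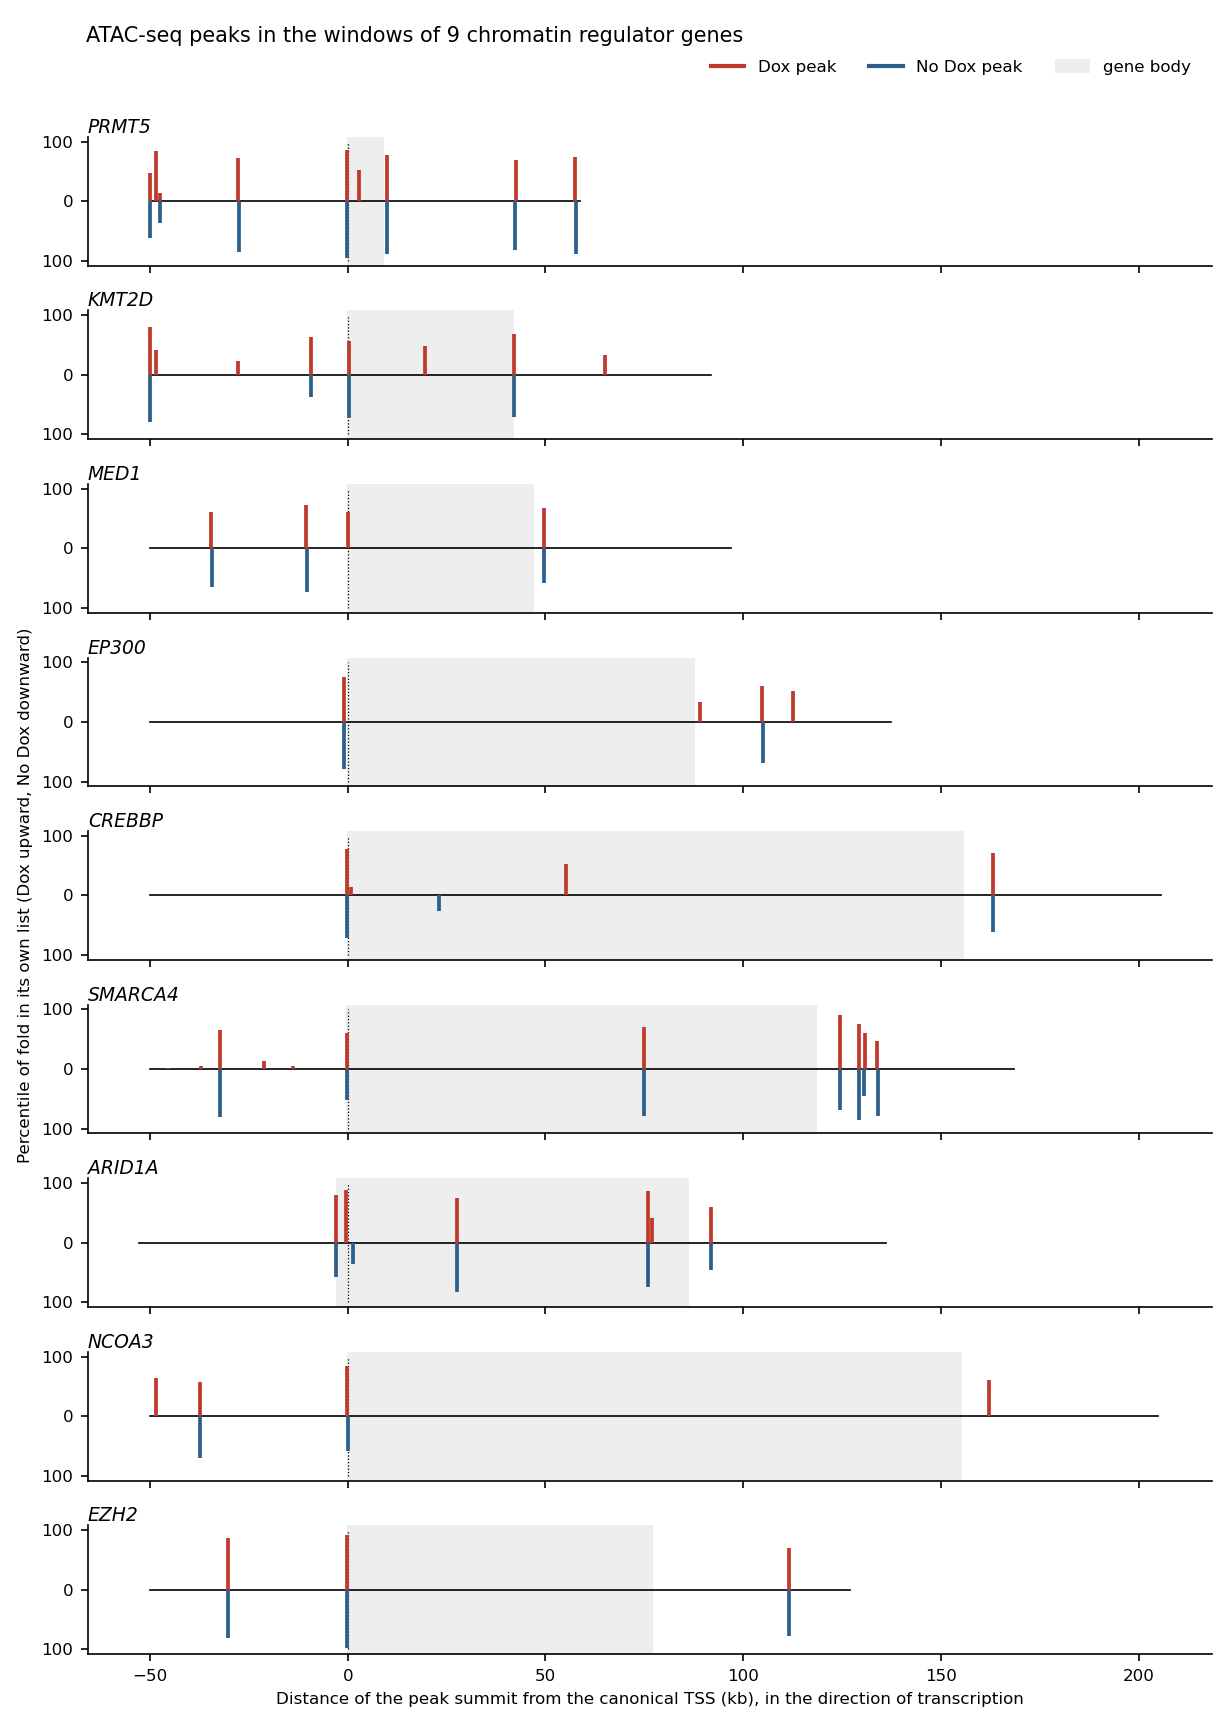
Position of every peak summit relative to the canonical transcription start site in kb (x axis, in the direction of transcription) for the 9 genes, with the percentile of the fold of the peak within its own list (y axis) drawn upward for Dox (red) and downward for No Dox (blue); grey shading is the gene body. Unpaired red lines outnumber unpaired blue ones, and all 9 start sites have a red line at or close to them.

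GC content moved with the Dox-only share and is given beside it. Over all coding genes the windows were divided into 5 equal groups by GC content, and the share rose from 22.0% in the lowest group through 34.4%, a middle group with a 95% CI of 43.1 to 44.8%, and 60.3% to 75.0% in the highest. None of the 9 windows lay in the lowest group and 5 lay in the upper 2. Within the middle group (MED1, EP300 and NCOA3), 5 of 5 condition-only regions were Dox-only. Within the next group (PRMT5, CREBBP and ARID1A) it was 4 of 6, and within the highest (KMT2D and SMARCA4) 8 of 8. Counted by the GC content of the region itself, 6 of 6 condition-only regions of the genes with a GC content from 40 to 50% were Dox-only, where 26.1% of all such regions were. From 50 to 60% GC it was 5 of 6, where 42.0% of all were, and above 60% it was 6 of 7, where 66.9% of all were. Over the chromosomes of the genes the percent of condition-only regions that were Dox-only ran from 26.0% on chromosome 7 (EZH2) to 73.5% on chromosome 22 (EP300). The part of base composition and chromosome in the balance at these genes was not tested.

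**Figure D3:**
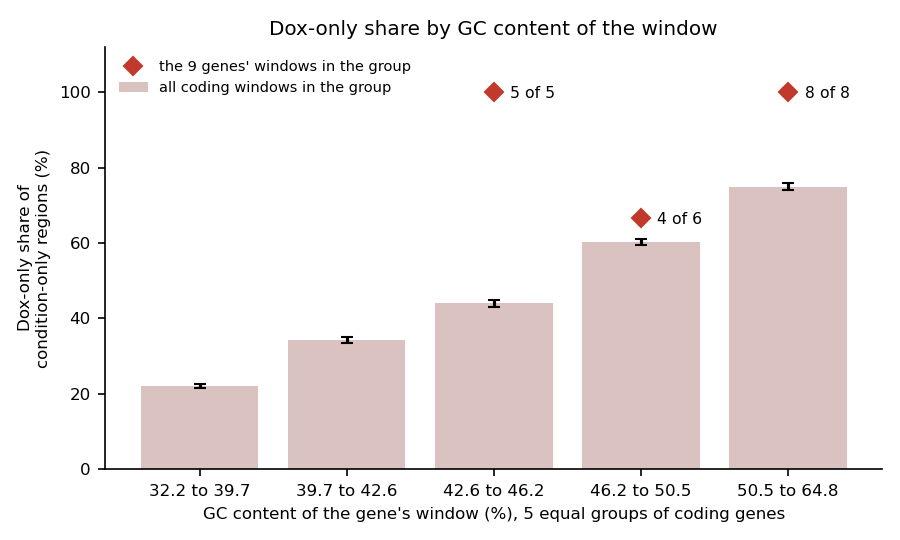
Percent of condition-only regions that were Dox-only (y axis) by the GC content of the window of the gene in percent (x axis, 5 equal groups of coding genes). Bars are all coding windows with exact 95% confidence intervals and diamonds are the pooled windows of the 9 genes in that group, which lay at 5 of 5, 4 of 6 and 8 of 8 in the upper 3 groups.

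Promoters were compared next, as peaks within 1 kb of any annotated start site of the gene. All 9 genes had a promoter peak with Dox, 8 of them in both conditions, compared with 65.3% of coding genes, and 1 (MED1) with Dox alone, compared with 5.85% of coding genes. At the start of the canonical transcript alone, MED1 and ARID1A had a peak within 1 kb with Dox alone, a state found at 5.58% of coding genes. The start-site base itself lay under a Dox peak at all 9 genes and under a No Dox peak at 6, and the 3 genes with Dox alone were MED1, ARID1A and EP300, compared with 4.73% of coding genes. The share of coding genes with a promoter peak with Dox alone was itself higher at high GC content, from 1.83% in the lowest group of windows to 13.8% in the highest. The fold of a peak is a whole multiple of 0.226 in the Dox list and of 0.212 in the No Dox list. The height of peaks is therefore compared between the lists below by the percentile within their own list. Folds and widths printed for both lists describe each list by itself, and the depth behind them is unknown.

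MED1, the Mediator subunit that nuclear receptors contact, had 1 peak at its start site, at chr17:39451043-39451427, with Dox. It was 385 bp wide, with a fold of 4.75 at the 60.4th percentile of the Dox list. The nearest No Dox peak lay 10.1 kb away, at the promoter of CDK12, the kinase of elongating RNA polymerase. The 3 other regions of the MED1 window, at FBXL20, at the CDK12 promoter and within CDK12, were shared. The highest of them with Dox, at the CDK12 promoter, stood at the 72.4th percentile with Dox and the 73.1st without. The promoter of MED1 printed above has a GC content of 50.4%, held 1 CCAAT box and none of the TEAD, AP-1, ETS, GC-box or TATA letters searched.

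ARID1A, the DNA-binding subunit of the SWI/SNF complex BAF, held the strongest Dox-only region of the 9 genes. This region, at chr1:26695365-26696234, covered the canonical start site, was 870 bp wide and had a fold of 9.27 at the 88.3rd percentile of the Dox list. Both lists had a peak at an upstream start site 2.63 kb away, at the 79.7th percentile with Dox and the 57.7th without. Without Dox a weak peak (fold 3.39, 337 bp) lay 1.20 kb into the gene in coding exon 1, the only No-Dox-only region near a start site. A second Dox-only region, with a fold of 3.84, lay at coding exon 14 and covered another annotated start site of ARID1A. In intron 1, in intron 12 and at the promoter of PIGV, a GPI-anchor enzyme, lay 3 shared regions. The intron 12 region was the highest of the shared ones with Dox, at the 87.0th percentile compared with the 75.0th without.

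SMARCA4, the ATPase that drives SWI/SNF complexes, had a start-site peak in both lists, at the 60.4th percentile with Dox and the 52.3rd without. Its 4 Dox-only regions all lay upstream of the gene, 1 in CARM1, 1 in YIPF2 and 2 between genes, of which the nearer lay 13.7 kb from the SMARCA4 start. Their folds of 2.71 to 3.16 put them among the weakest peaks of the Dox list, at its 14.0th percentile or lower.

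KMT2D, a methyltransferase of histone H3 that acts at enhancers, had a start-site peak in both lists, at the 56.9th percentile with Dox and the 73.1st without. It had 4 Dox-only regions. The strongest was the exonic region printed above, at chr12:49041223-49041549, with a fold of 4.07, which also covered another annotated start site of KMT2D. The others lay in DDN (fold 3.62), in DHH, which encodes desert hedgehog (3.39), and near a start site of LMBR1L (3.84). The difference of -16.2 points at the KMT2D start lay inside the range of all shared regions, 28.3% of which were below it. Among shared regions within 1 kb of a canonical coding start site, it lay below the lower quartile of -8.06. The lowest value there was -77.0. The promoter region of its neighbour RHEBL1 stood at the 63.5th percentile with Dox and the 36.7th without, a difference above that of 94.5% of shared regions. The highest shared region of the window, at the promoter of LMBR1L, differed little in rank, with percentiles of 79.7 and 79.3.

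PRMT5, the main enzyme of symmetric arginine dimethylation, had a start-site peak with a fold of 8.59 at the 86.3rd percentile with Dox and 12.9 at the 95.1st without, second only to EZH2 without Dox. Its only Dox-only region lay 2.72 kb from the canonical start in coding exon 6 (chr14:22926421-22926654, fold 4.29). This exon 6 region also covered another annotated start site of PRMT5. The other 6 regions were shared, and lay at the promoters of the neighbours LRP10, RBM23, HAUS4 and AJUBA, within REM2 and within AJUBA. PRMT5 had the highest density of regions of the 9 genes, 7.35 per 100 kb, and CREBBP the lowest, 1.56.

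EZH2, the catalytic subunit of the repressive complex PRC2, had the highest start-site peak of all 9 genes in both lists. It reached a fold of 16.7 at the 97.3rd percentile over 2003 bp without Dox, and 11.3 at the 92.5th percentile over 1129 bp with Dox. The summit was at the same base in both. The other 2 regions of its window, 29.9 kb upstream of the start and 111 kb downstream of it in CUL1, were also shared.

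EP300 and CREBBP encode the paralogous acetyltransferases p300 and CBP. At the EP300 start the Dox peak spanned 1861 bp and the No Dox peak 775 bp, with summits 18 bp apart and percentiles of 75.7 and 79.3. The No Dox peak ended 339 bp before the start site, so it left the start-site base uncovered without being lower in rank. Both Dox-only regions of EP300 lay downstream, 1 between genes (fold 3.62) and 1 at the promoter of L3MBTL2, a Polycomb-related protein (fold 4.29). CREBBP had a start-site peak at the 78.5th percentile with Dox and the 71.0th without. Within CREBBP, a Dox-only region lay in intron 2 (chr16:3825323-3825552, fold 4.29) and a No-Dox-only region in intron 1 (chr16:3857457-3857753, fold 3.18).

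NCOA3, a steroid receptor coactivator, had the largest gain in rank at a start site. The peak was 545 bp wide at the 84.8th percentile with Dox (fold 8.14) and 271 bp wide at the 57.7th percentile without (fold 4.02). The difference of 27.0 percentile points lay above that of 94.6% of all shared regions of the genome. Among shared regions within 1 kb of a canonical coding start site, it lay above the 95th percentile of 14.7 points. The TEAD letters of its promoter lay inside the peaks of both lists. Both condition-only regions of NCOA3 were strong and Dox-only, 1 upstream of the gene (fold 4.97) and 1 near a start site of SULF2, a heparan sulfate sulfatase (fold 4.75).

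Over the 34 shared regions, the percentile with Dox minus that without had a median of -4.20 points, and 14 regions (41.2%) were above 0. Over all 48557 shared regions the median was -5.03 and 30.3% were above 0. At the 7 canonical start sites with a shared region the median was -3.62 with 3 above 0 (NCOA3, SMARCA4 and CREBBP), compared with a median of -2.18 at shared start-site regions genome-wide. The middle of the shared regions thus lay close to that of all shared regions. The range was from -30.4 to 48.1, and the highest value was at AJUBA, which encodes a LIM protein that binds the Hippo kinase LATS. In that AJUBA region the higher peaks of the lists had summits 1047 bp apart, so this value compares different parts of the region.

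**Figure D4:**
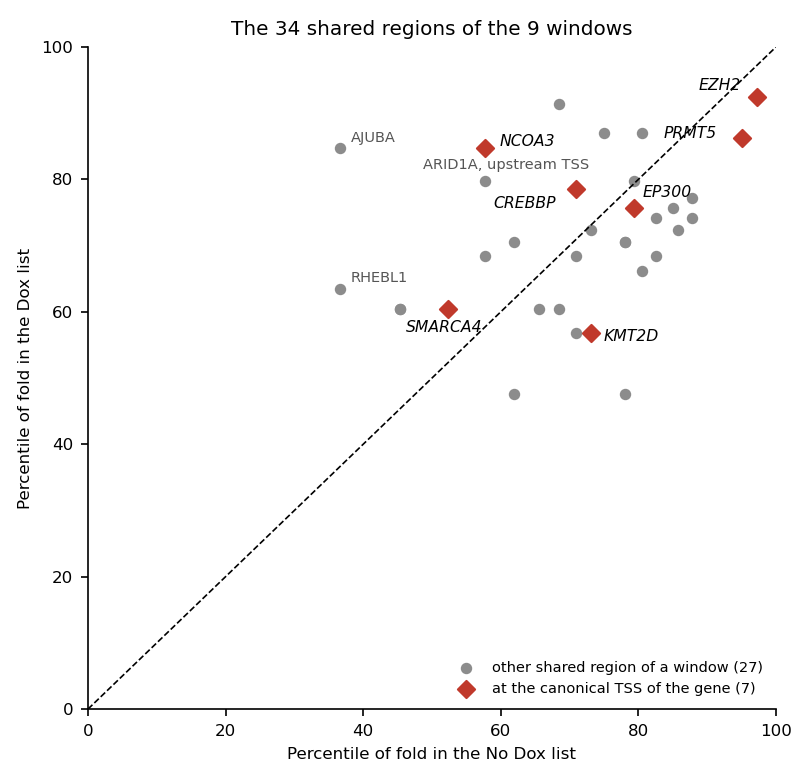
Percentile of fold in the Dox list (y axis) against percentile of fold in the No Dox list (x axis) for the 34 shared regions of the 9 windows. Red diamonds are the 7 regions at the canonical start site of a gene, grey points are the other shared regions, and the dashed line marks equal percentiles; NCOA3 lay farthest above the line among the diamonds and KMT2D farthest below.

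Motif letters were sought on both strands in the 100 bp to either side of the summit, taken from the higher peak where both lists had one. A TEAD consensus (ACATTCC or else GCATTCC) was present in 3 of the 17 Dox-only regions, neither No-Dox-only region and 6 of the 34 shared regions, compared with 13.6%, 5.72% and 10.0% of all regions of these classes. An AP-1 consensus (TGACTCA or else TGAGTCA) was present in 1 Dox-only and 3 shared regions, compared with 8.12% and 18.4% of all regions of these classes. The RUNX letters TGTGGT were present in 3 Dox-only and 2 shared regions, compared with 16.3% and 14.4% of all regions of these classes. The ETS letters CCGGAAG were present in 1 Dox-only region, the PRMT5 exon, and in 1 shared region, compared with 1.24% and 4.26%. The TEAD letters reversed, CCTTACA or else CCTTACG, served as a control and were present in 1 Dox-only and 2 shared regions, compared with 2.16% and 2.0% of all regions of these classes. At these small counts the control letters, like the TEAD letters, were more frequent than over all regions. Of the 6 shared regions with a TEAD consensus, the percentile was higher with Dox in 4, AJUBA among them, and lower in 2, compared with higher in 51.8% of all 4876 shared regions with a TEAD consensus.

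Among the 250 bases before the RefSeq starts of coding genes, 4.81% of 21548 promoters held TEAD letters, and of the canonical promoters of the 9 genes only that of NCOA3 did. GC boxes, held by 54.3% of promoters, were counted 4 times each in EZH2 and SMARCA4, 3 times each in ARID1A and CREBBP and 2 times in KMT2D. CCAAT boxes, held by 32.9%, were counted 4 times in EZH2, 3 times in PRMT5 and 1 time in MED1. EP300 held none of the letters searched. AP-1, ETS and TATA letters (TATAAA), held by 3.46%, 10.7% and 8.98% of promoters, were in none of the 9.

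The complexes and families to which these proteins belong were described by lists of 98 further genes, which do not include the 9. The windows of the listed genes can overlap those of the 9, and regions in such an overlap were counted in both. The 4 Dox-only regions upstream of SMARCA4 also lay in the window of the arginine methylation gene CARM1, which held 5. Of the 98, 93 had a promoter peak in both lists, 4 with Dox alone and 1 (MED9) with No Dox alone. Over all coding genes these states were found at 65.3%, 5.85% and 3.92%, so the counts of 4 and 1 were not above the background. The 4 genes with Dox alone were MED18 (fold 3.62) and MED27 (4.97) of Mediator, the acetyltransferase KAT2A (4.75 at the canonical start) and the SWI/SNF subunit SMARCD1 (4.52). Of the condition-only regions in the windows of the 98 genes, 234 were Dox-only and 149 No-Dox-only, which gave a share of 61.1% (95% CI 56.0 to 66.0). It was 75.8% for SWI/SNF genes (95% CI 65.9 to 84.0), 76.2% for arginine methylation genes, 74.6% for KMT2 COMPASS genes, 64.9% for PRC2 genes and 56.1% for acetyltransferase and BET genes. In the KMT2 COMPASS list, the window of RBBP5 held 18 of the 50 Dox-only and 4 of the 17 No-Dox-only regions. The share without RBBP5 was not computed. For the 31 Mediator genes the share was 40.2% (95% CI 31.4 to 49.4). Of their 73 No-Dox-only regions, 23 lay in the window of MED7 and 19 in that of MED10, both on chromosome 5, and without these 2 genes, left out because their values were known to dominate the list, the share was 55.7% (95% CI 43.3 to 67.6). High shares were also found outside chromatin regulators, at 65.8% for mammary epithelial markers and 81.0% for fibroblast markers, the latter 64.7% without PDGFRB, left out for the same reason. They were 41.5% for immune and 37.9% for endothelial markers.

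**Figure D5:**
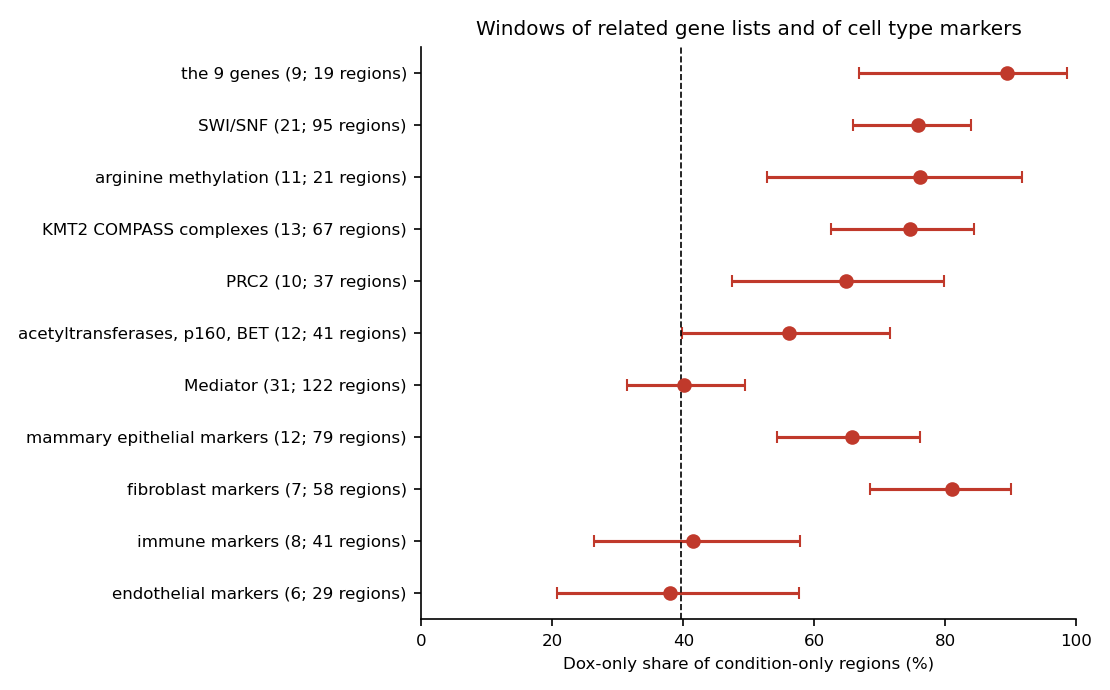
Percent of condition-only regions that were Dox-only (x axis) in the windows of the 9 genes, of 6 lists of related genes and of 4 lists of cell type markers (y axis, with the number of genes and of condition-only regions). Bars are exact 95% confidence intervals for counting error only, and the dashed line marks the 39.7% of all coding windows. The lists do not include the 9 genes, but windows of listed genes can overlap those of the 9. The Mediator, immune and endothelial lists sat next to it, and the fibroblast markers lay at 81.0%.

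The gene of endogenous TAZ, WWTR1, had a start-site peak in both lists, with a fold of 18.3 at the 98.0th percentile with Dox and 18.0 at the 97.7th without. The transgene is not read by this start-site peak, and the coding exons of WWTR1 were not searched for peaks, so its induction was not checked here.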

How the data were processed

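Chromatin accessibility was measured by ATAC-seq in 2 No Dox and 2 Dox samples. According to the methods and the submitters' processing notes, BWA was used by the authors for alignment to hg38, and peaks were called by MACS2 (FDR cutoff 0.05) on the 2 pooled replicates. Column 7 of the deposited lists is the fold enrichment at the summit, a ratio of the authors' pooled signal to background. A −log10 q-value is deposited for every peak as well. All 202093 peaks lay inside the hg38 sequence ends. Peak calls depend on depth, which is unknown here, and a longer list holds more weak peaks.

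Overlapping or touching peaks of the autosomes and chromosome X were joined into regions, and windows, exons and start sites came from GENCODE release 44. Percentiles are ranks of the fold within a list, with ties at their mean rank. RefSeq held promoters of all 9 genes. Named were the 9 genes, their promoter peaks, all condition-only regions and the highest shared region of each, related genes whose promoter state differed between the lists, and neighbours with a start site within 1 kb of these. Other neighbours and regions and WWTR1 were named after their values were seen, and a few items under the rule were left out of the report. The genes and lists were chosen with earlier results of these data known. Alternatives changed the q-value, overlap, window and promoter distance. The steps for region classes, partner overlap, summit distance, promoter states and TEAD letters were tested on simulated data. Python 3.11.15, numpy 2.4.6, pandas 2.3.3, scipy 1.17.1, pysam 0.24.0, samtools 1.23.1 and matplotlib 3.10.9 were used.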

Additional observations from a re-analysis of the deposited data

How the results depend on the processing

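The Dox-only regions of the 9 genes outnumbered the No-Dox-only regions under every alternative tried. Their number, 17, became 8 with strong regions only, 6 in the gene bodies alone, 9 with flanks of 20 kb, 31 with flanks of 100 kb and 9 where the nearest coding start site had to be that of the gene. The 2 No-Dox-only regions became 0 at a q-value of 1e-05 and with strong regions only, 1 with lists of equal length and 4 with flanks of 100 kb. The Dox-only share reached 100% at a q-value of 1e-05 and with strong regions only. Promoter peaks with Dox alone were found at 2 genes when the peak had to cover a start site or only the canonical transcript was used, and the genes with a promoter peak in both conditions stayed within 1.5 times of 8 throughout. Condition-only regions with a TEAD consensus fell to 1 within 50 bp of the summit. Of 99 balances of single genes under the alternatives, 67 kept their value, 32 moved and none reversed. CREBBP and EZH2, with equal counts of both classes, could not be labelled reversed. Alternatives that only dropped regions could not reverse a gene without a No-Dox-only region. The absence of reversals therefore says little. No paired analysis was possible because the authors pooled the replicates of each condition. With 1 list per condition and no read counts, a peak just under the threshold cannot be told from an absent one.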

Other observations

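The AJUBA region, 47.4 kb upstream of PRMT5 at chr14:22976765-22978494, held a No Dox peak of 920 bp with a fold of 3.39 and, beside a weak Dox peak of fold 3.16, a Dox peak of 942 bp with a fold of 8.14. The higher Dox peak overlapped the No Dox peak only at its edge, and its rank exceeded that of the No Dox peak by more than in 98.5% of shared regions. The 201 bases around its summit (chr14:22977784-22977984 on the plus strand of hg38), which held 2 TEAD matches, in capitals, are shown because the rank difference of this region, which compares summits 1047 bp apart, was the largest in the 9 windows. With summits required to lie within 500 bp, the higher Dox peak counted as a separate site without a No Dox partner.
AJUBA region: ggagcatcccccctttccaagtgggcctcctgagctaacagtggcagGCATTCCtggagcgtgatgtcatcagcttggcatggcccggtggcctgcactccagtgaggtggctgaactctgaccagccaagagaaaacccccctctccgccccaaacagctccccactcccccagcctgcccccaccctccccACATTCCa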
